A study of Chlamydomonas reinhardtii with 6 samples.

Results

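Amino acid metabolism was followed in the green alga Chlamydomonas reinhardtii through 28 genes that carry this functional category and that changed after 1 h of UV-B. They were chosen from the authors' deposited table of genes changed at least 2-fold between the same libraries that are described here. Of the 13452 genes with values, 2596 are in that table, 884 of these carry a MapMan category (a plant pathway annotation), and 28 have a category that starts with amino acid metabolism. Because the same contrast chose the genes, their differences are given as a description and without a test. By category, 12 of them belong to synthesis, 14 to degradation and 2 to neither class.

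The 1 h UV-B group was 3 stationary cultures of strain CC-125 (137c mt+) in TAP, a medium with acetate. They stood in dishes of 15 mL under white lamps, weak at 3.6 µmol m-2 s-1, to which narrowband UV-B (0.07 mW/cm2) was added, and a filter that passes light above about 311 nm lay over them. The no UV-B group was 3 cultures of the same strain and stage in the same light field, also sampled after 1 h, whose filter passes light above about 360 nm. The filters thus differ over all light between these wavelengths. The cultures are called independent in the design text, but the growth protocol has the 6 dishes start from 1 diluted starter culture. As bulk samples they cannot tell less transcript in every cell apart from transcript lost in some of the cells. Libraries held 9529134 to 11214409 reads with UV-B and 7868534 to 11972794 without, and the scaling factors that the authors' values imply, 1.02 to 1.08 with UV-B and 0.926 to 1.00 without, did not overlap. Values below are normalised read counts, which are CPM relative to an effective library size, and a log2 fold change is on the log2(value + 1) scale with its standard error (n = 3 libraries in each group).

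Algae make all the amino acids of proteins themselves, in large part in the chloroplast. Lysine derives from aspartate, arginine and proline from glutamate, and the aromatic amino acids from chorismate. Breakdown of the branched-chain amino acids leucine, isoleucine and valine takes place mainly in mitochondria in land plants, where it passes electrons to respiration and yields acetyl-CoA, and its genes are known there for induction in darkness and carbon shortage.

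Degradation genes were lower with UV-B in 13 of 14 cases, with a median log2 fold change of -1.74. For all 13452 genes the authors' table lists 9.63% as lowered and 9.67% as raised. Synthesis genes were divided, 6 higher and 6 lower. The higher synthesis genes were all 3 of the lysine branch, both that use chorismate, and 1 of arginine synthesis. By category, the lower ones belong to arginine, proline, serine, cysteine and alanine, although the enzyme named for alanine uses it to make glycine. Both genes with neither class were lower.

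Counted together, 7 of the 28 genes were higher and 21 (75.0%) were lower with UV-B. The authors' table lists 19.3% of all genes. Among the 856 other genes of that table with a category, 45.4% were lower. All 28 genes passed the filter on low values, and in all 28 the groups did not overlap. In the authors' scaling, groups did not overlap in 63.2% of all genes, 31.7% higher and 31.6% lower with UV-B. An adjusted p under 0.05 was reached by 59.0% of all genes tested, and that the 28 genes are among them was fixed by taking them from the authors' table of the same libraries. The median log2 fold change of the 28 was -1.29, against 0.87 for the 856 other genes. Over all 13415 genes tested it was 0.00037, which is no like comparison because listed genes were chosen for a change of at least 2-fold. At least a 4-fold change in the authors' deposited table was seen in 8 of the 28 and in 19.0% of the 856 other genes.

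**Figure D1:**
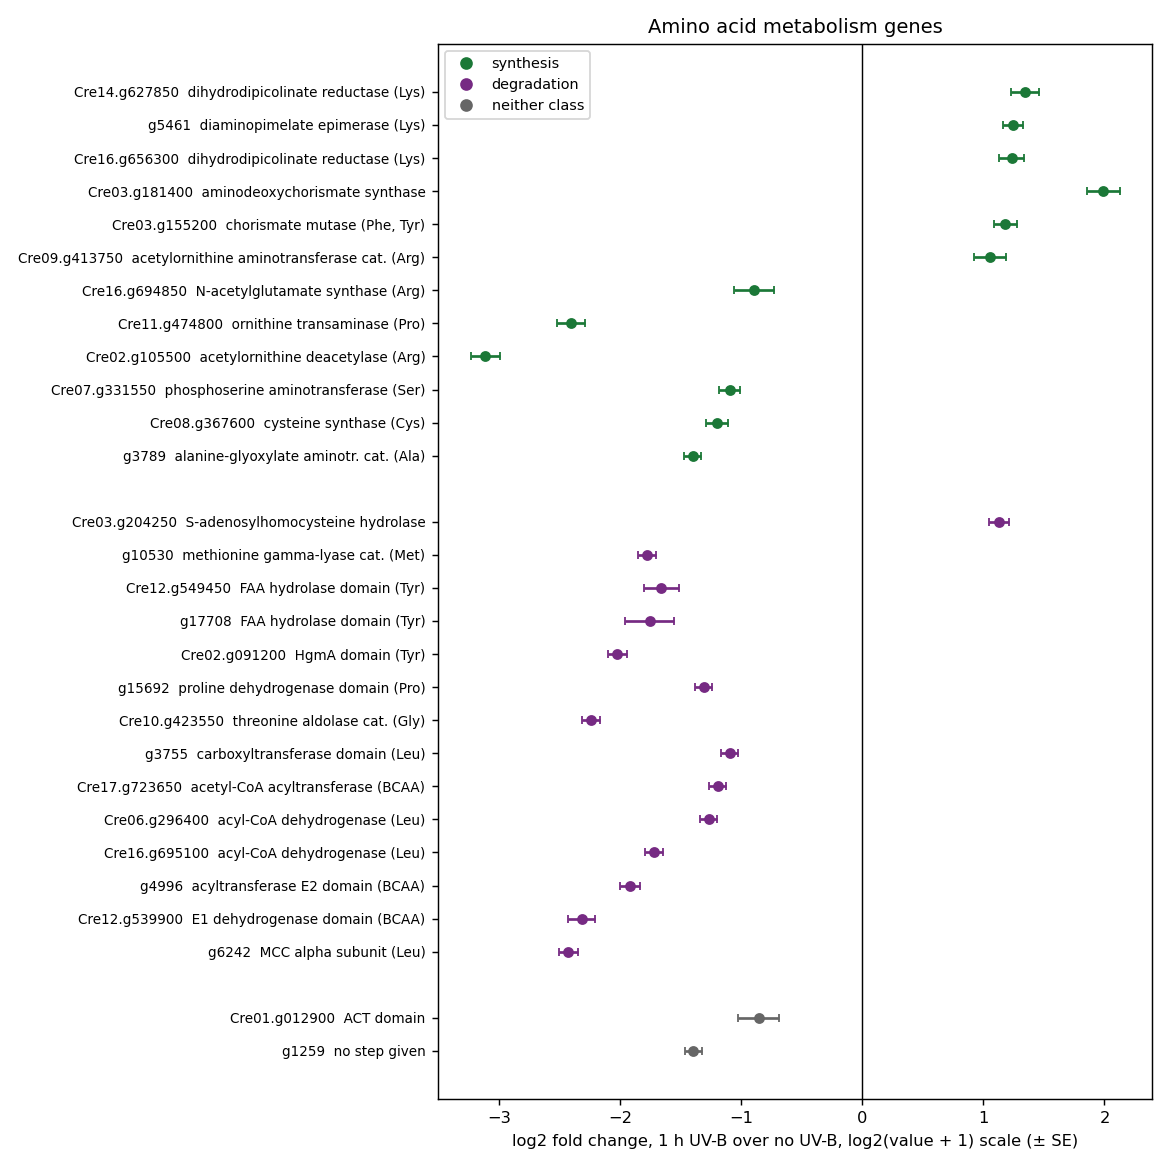
Log2 fold change of 1 h UV-B over no UV-B (x axis, with the standard error as a bar) for each of the 28 genes (y axis), coloured by class. Of 14 degradation genes 13 lie left of 0, and the 12 synthesis genes lie 6 on each side.

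**Figure D2:**
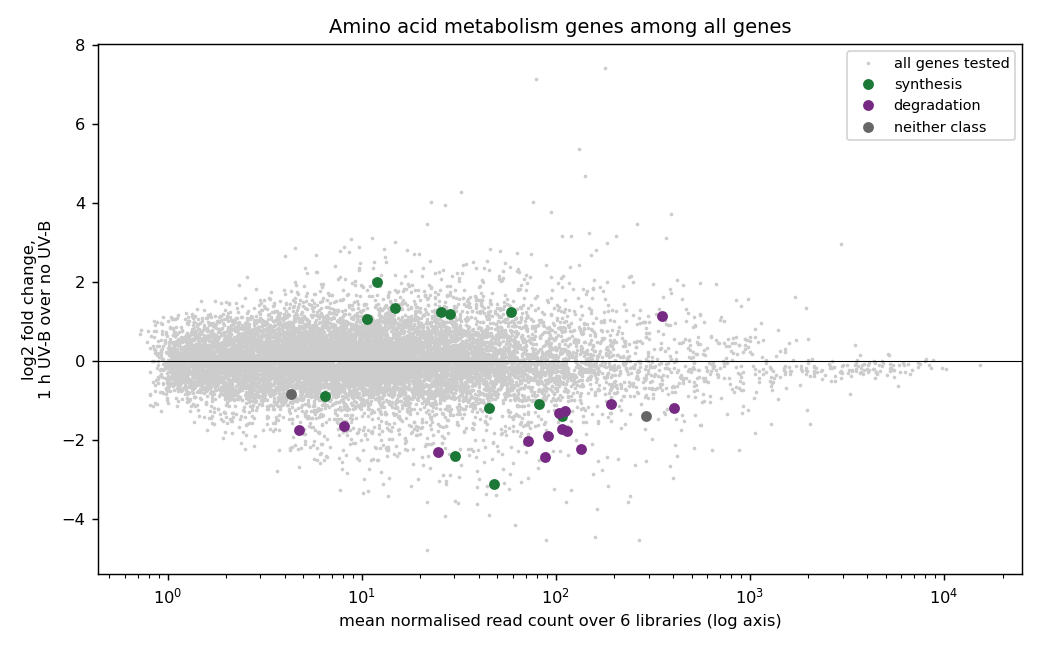
Log2 fold change of 1 h UV-B over no UV-B (y axis) against the mean normalised read count over the 6 libraries (x axis, log scale). Grey points are the 13415 genes tested and coloured points the 28 genes by class, of which 21 lie below 0.

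The branched-chain group was the largest, with 7 genes that were all lower with UV-B. Their log2 fold changes ran from -2.43 to -1.10, with a median of -1.72. By category and domain they include parts of successive steps of leucine breakdown, from the decarboxylation of the keto acid to the carboxylation of methylcrotonoyl-CoA.

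The complex that decarboxylates branched-chain keto acids is represented by a gene with an E1 dehydrogenase domain and a gene with an acyltransferase domain of the E2 type. The E1-type gene Cre12.g539900 had normalised counts of 6.41, 8.25 and 8.03 in the 1 h UV-B libraries, against 45.1, 42.1 and 37.5 in the no UV-B libraries. This is a 5.49-fold lower mean with UV-B and a log2 fold change of -2.32 ± 0.11. The E2-type gene g4996 had normalised counts of 36.7, 33.9 and 42.2 in the 1 h UV-B libraries, against 147, 143 and 142 in the no UV-B libraries, a log2 fold change of -1.92 ± 0.08. In both genes every UV-B library was below every library without UV-B, by at least 4.55-fold in Cre12.g539900 and 3.38-fold in g4996. The domain names of g4996 include AceF, the same subunit of pyruvate dehydrogenase, so its place in this pathway rests on its category. The same holds for Cre12.g539900, whose domain name TPP_E1_PDC_ADC_BCADC covers pyruvate dehydrogenase beside the branched-chain enzyme.

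Acyl-CoA dehydrogenases follow the decarboxylation, and isovaleryl-CoA dehydrogenase is the enzyme of this family in the leucine pathway. Cre16.g695100 had normalised counts of 45.1, 50.7 and 52.4 in the 1 h UV-B libraries, against 168, 168 and 159 in the no UV-B libraries, a 3.34-fold lower mean. Cre06.g296400, whose leading domain is that of isovaleryl-CoA dehydrogenase, had normalised counts of 63.4, 65.9 and 66.2 in the 1 h UV-B libraries, against 152, 163 and 161 in the no UV-B libraries, a 2.43-fold lower mean. Both are placed under leucine degradation, although the leading domain of Cre16.g695100 is GCD, the glutaryl-CoA dehydrogenase of lysine and tryptophan breakdown in animals and bacteria. The values of Cre06.g296400 were tight, with a coefficient of variation of 2.33% with UV-B and 3.70% without.

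Methylcrotonoyl-CoA carboxylase is a biotin enzyme of a pair of subunits that is specific to leucine breakdown. Its alpha subunit, which carries the biotin carboxylase, is g6242, with normalised counts of 24.0, 26.9 and 29.5 in the 1 h UV-B libraries, against 154, 147 and 144 in the no UV-B libraries. It was 5.53-fold lower with UV-B, at -2.43 ± 0.08 on the log2 scale, the largest fall of the branched-chain group. The gene with a carboxyltransferase domain in the same category, g3755, had normalised counts of 115, 126 and 126 in the 1 h UV-B libraries, against 266, 261 and 261 in the no UV-B libraries, a log2 fold change of -1.10 ± 0.07. The fall was thus unequal between the 2 genes. The ratio of g6242 to g3755 within a library was 0.209, 0.214 and 0.233 with UV-B and 0.580, 0.562 and 0.551 without, so it was 2.58-fold lower with UV-B and the groups lay far apart. The difference between the 2 log2 fold changes was -1.33. A ratio within a library does not depend on the scaling of the library.

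A ratio was also taken for the other pairs of this group. The E1-type over the E2-type gene had a ratio of 0.175, 0.243 and 0.191 with UV-B and 0.306, 0.295 and 0.264 without, a smaller shift of 1.42-fold. The acyl-CoA dehydrogenase genes, Cre16.g695100 over Cre06.g296400, had ratios of 0.712, 0.770 and 0.792 with UV-B and 1.11, 1.03 and 0.993 without it, a 1.38-fold shift. The UV-B libraries were lower in both ratios with no overlap.

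The remaining gene of the group, Cre17.g723650, is described as an acetyl-CoA acyltransferase, a thiolase that cleaves an acyl chain and that also serves fatty acid oxidation. It had normalised counts of 231, 264 and 249.8 in the 1 h UV-B libraries, against 598, 549 and 558 in the no UV-B libraries, a 2.29-fold lower mean.

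**Figure D3:**
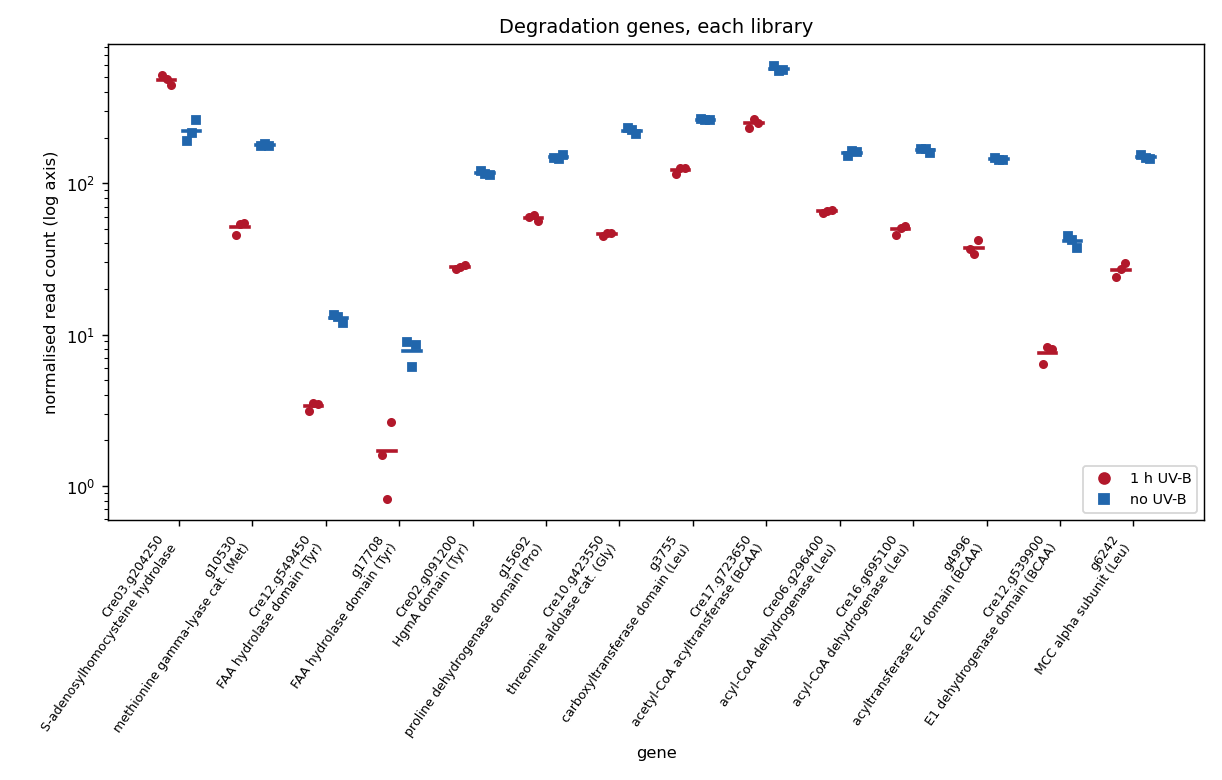
Normalised read count (y axis, log scale) of the 14 degradation genes (x axis) in each library, as circles for 1 h UV-B and squares for no UV-B, with a line at each mean. The UV-B libraries are below the others in 13 genes and above them in Cre03.g204250, at 447.6 to 514.7 against 190.9 to 259.9.

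Tyrosine breakdown had 3 genes, all lower. The pathway opens the ring of homogentisate with a dioxygenase and ends with the cleavage of fumarylacetoacetate. Cre02.g091200, with the homogentisate dioxygenase domain HgmA, had normalised counts of 27.0, 27.8 and 28.7 in the 1 h UV-B libraries, against 121, 115 and 114 in the no UV-B libraries. Its mean was 4.17-fold lower and its log2 fold change -2.02 ± 0.08. The spread within a group was small, at 2.89% of the mean with UV-B and 3.29% without.

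A pair of genes with the fumarylacetoacetate hydrolase domain had low values. Cre12.g549450 had normalised counts of 3.11, 3.51 and 3.48 in the 1 h UV-B libraries, against 13.4, 13.1 and 12.0 in the no UV-B libraries, a 3.81-fold lower mean. g17708 had normalised counts of 1.60, 0.825 and 2.65 in the 1 h UV-B libraries, against 8.88, 6.07 and 8.57 in the no UV-B libraries. Its lowest library held 8 reads, its UV-B values varied by 54.1% of their mean, and its 4.63-fold lower mean is correspondingly loose. The ratio of g17708 to Cre12.g549450 was 0.515, 0.235 and 0.762 with UV-B and 0.664, 0.465 and 0.715 without it, so the groups overlapped in this ratio. Whether reads shared by similar copies were kept is not stated in the labels.

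Methionine had 1 gene in each direction. g10530 is placed under methionine gamma-lyase, which cleaves methionine into methanethiol, ammonia and a keto acid. Its domains MetC and MET17 are shared with enzymes that make cysteine and methionine. Its normalised counts were 45.7, 53.9 and 54.5 in the 1 h UV-B libraries, against 176, 180.2 and 177 in the no UV-B libraries, a 3.46-fold lower mean at -1.78 ± 0.08 on the log2 scale. Cre03.g204250 encodes S-adenosylhomocysteine hydrolase, which removes the by-product of methylation reactions and returns homocysteine for methionine. It is filed under methionine degradation, and it had normalised counts of 515, 486 and 448 in the 1 h UV-B libraries, against 191, 216 and 259.9 in the no UV-B libraries. Its mean was 2.17-fold higher with UV-B, with a log2 fold change of 1.13 ± 0.08, and it was the 1 degradation gene that was higher.

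Cre10.g423550 is filed under threonine aldolase, which splits threonine into glycine and acetaldehyde, and its category names both degradation and synthesis of glycine. It had normalised counts of 44.7, 47.1 and 47.1 in the 1 h UV-B libraries, against 233, 223 and 211 in the no UV-B libraries, a 4.80-fold lower mean with a log2 fold change of -2.24 ± 0.07. Cre16.g678200, which has threonine degradation in its annotation, is not among the 28 because its category starts with lactoylglutathione lyase. Its normalised counts were 4.15, 3.51 and 3.98 with UV-B and 53.4, 60.7 and 55.1 without it, 14.6-fold lower, more than any of the 28.

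Proline breakdown had g15692, with the domain of proline dehydrogenase, which oxidises proline in mitochondria. It had normalised counts of 59.8, 61.8 and 56.2 in the 1 h UV-B libraries, against 147, 145 and 154 in the no UV-B libraries, a 2.50-fold lower mean with a log2 fold change of -1.31 ± 0.07. Proline synthesis had Cre11.g474800, an ornithine transaminase, which converts ornithine into a precursor of proline and glutamate. Its normalised counts were 10.3, 6.81 and 10.1 in the 1 h UV-B libraries, against 51.1, 53.0 and 50.4 in the no UV-B libraries, 5.69-fold lower with a log2 fold change of -2.40 ± 0.12. By category, genes on both sides of proline were lower. The gene filed under synthesis was lowered further. The ratio of Cre11.g474800 to g15692 was 0.172, 0.110 and 0.180 with UV-B and 0.348, 0.367 and 0.327 without it. The annotation of Cre11.g474800 also names an aminotransferase of tetrapyrrole synthesis.

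Summed over the 13 lower degradation genes, the normalised read count was 747 ± 37.4 with UV-B and 2174 ± 48.8 without (SD, n = 3 each). The libraries ranged from 704 to 770.4 with UV-B and from 2138 to 2230 without. These genes were summed because they were lower. Over all 14 degradation genes, with Cre03.g204250 among the largest values, the sum was 1229.9 ± 23.3 with UV-B and 2396 ± 25.1 without.

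The lysine branch of synthesis had 3 genes, all higher with UV-B by similar amounts, at log2 fold changes of 1.23 to 1.34. In algae and plants lysine is made from aspartate through diaminopimelate. Dihydrodipicolinate reductase acts early in this branch and is represented by a pair of genes. Cre14.g627850 had normalised counts of 22.7, 19.6 and 23.1 in the 1 h UV-B libraries, against 7.46, 8.18 and 8.32 in the no UV-B libraries, 2.73-fold higher in the mean. Cre16.g656300 had normalised counts of 38.7, 31.4 and 39.6 in the 1 h UV-B libraries, against 15.5, 14.5 and 14.7 in the no UV-B libraries, 2.45-fold higher. The ratio of Cre14.g627850 to Cre16.g656300 was 0.586, 0.625 and 0.584 with UV-B and 0.482, 0.564 and 0.565 without it, so the pair had close changes, with a difference in log2 fold change of 0.11, and the ratios of the groups nearly met. g5461, placed under diaminopimelate epimerase, which acts near the end of the branch, had normalised counts of 83.1, 81.9 and 84.2 in the 1 h UV-B libraries, against 35.5, 36.8 and 31.4 in the no UV-B libraries. It was 2.40-fold higher. Its coefficient of variation with UV-B was 1.41%.

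Both genes that act on chorismate were higher. Cre03.g155200 encodes chorismate mutase, the entry to phenylalanine and tyrosine, and had normalised counts of 38.8, 40.0 and 40.3 in the 1 h UV-B libraries, against 16.1, 18.9 and 16.1 in the no UV-B libraries, a 2.33-fold higher mean. Cre03.g181400 is filed under anthranilate synthase, the entry to tryptophan, but is described as aminodeoxychorismate synthase, an enzyme that turns chorismate toward folate. It had normalised counts of 22.2, 17.7 and 19.5 in the 1 h UV-B libraries, against 4.83, 4.22 and 3.66 in the no UV-B libraries. Its mean was 4.68-fold higher with UV-B and its log2 fold change was 1.99 ± 0.14, the largest rise of the 28. Relative to chorismate mutase its ratio was 0.573, 0.443 and 0.484 with UV-B and 0.299, 0.224 and 0.228 without it. The UV-B libraries were higher in this ratio with no overlap.

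**Figure D4:**
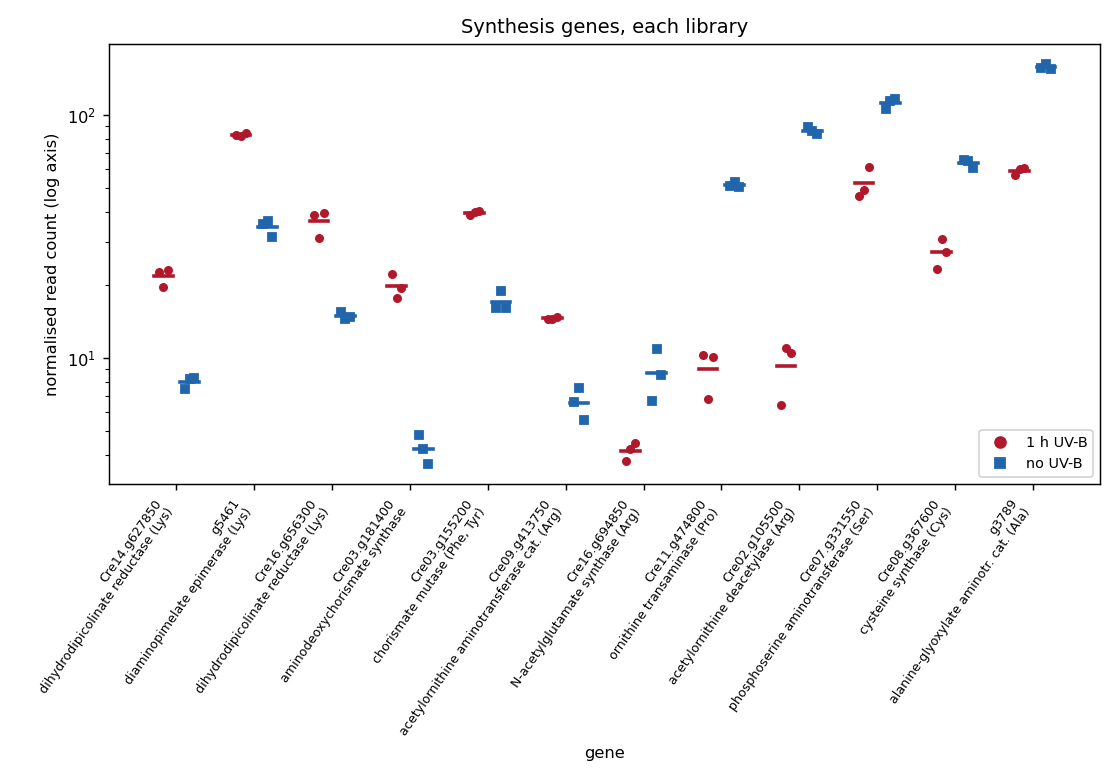
Normalised read count (y axis, log scale) of the 12 synthesis genes (x axis) in each library, as circles for 1 h UV-B and squares for no UV-B, with a line at each mean. In the 6 genes on the left the UV-B libraries are above the others and in the 6 on the right below them.

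Arginine and its precursor ornithine derive from glutamate by way of acetylated intermediates, and their 3 genes went both ways. Cre02.g105500 encodes acetylornithine deacetylase, which releases ornithine from acetylornithine. Its normalised counts were 6.41, 11.0 and 10.5 in the 1 h UV-B libraries, against 89.1, 86.3 and 83.7 in the no UV-B libraries, 9.26-fold lower in the mean and -3.11 ± 0.12 on the log2 scale, the largest fall of the 28. UV-B replicate 1 was lower than the other UV-B libraries, and all 3 were at least 7.58-fold below any library without UV-B. Cre09.g413750 is filed under acetylornithine aminotransferase, the step before, and had normalised counts of 14.5, 14.5 and 14.8 in the 1 h UV-B libraries, against 6.58, 7.52 and 5.57 in the no UV-B libraries, 2.23-fold higher. The ratio of Cre02.g105500 to Cre09.g413750 was 0.442, 0.759 and 0.709 with UV-B and 13.5, 11.5 and 15.0 without it, a 21.0-fold lower mean ratio with UV-B. Cre16.g694850 has the domain ArgJ of the enzyme that moves the acetyl group from acetylornithine to glutamate, is described as N-acetylglutamate synthase and is filed under argininosuccinate synthase. It had normalised counts of 3.77, 4.23 and 4.47 in the 1 h UV-B libraries, against 6.69, 11.0 and 8.57 in the no UV-B libraries. Its groups lay close, with a gap of 1.50-fold between the nearest libraries.

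**Figure D5:**
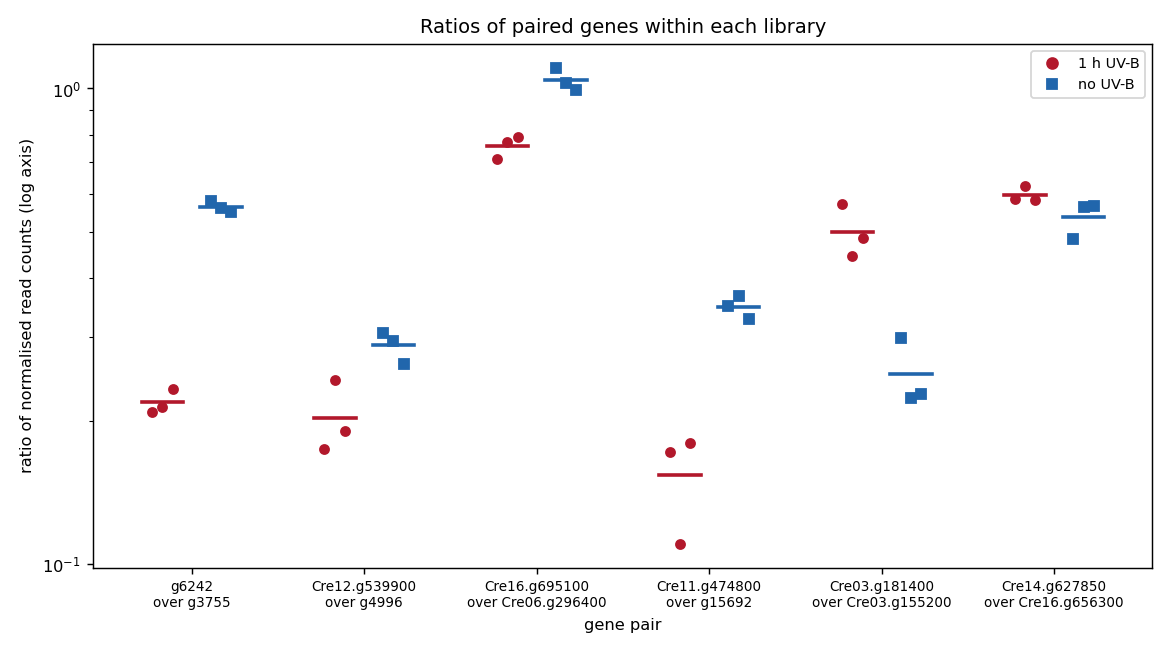
Ratio of the normalised read counts for 6 pairs of genes (x axis) within each library (y axis, log scale), as circles for 1 h UV-B and squares for no UV-B, with a line at each mean. The shift is larger for g6242 over g3755, at 0.209 to 0.233 with UV-B against 0.551 to 0.580 without, than for Cre14.g627850 over Cre16.g656300.

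The serine, glycine and cysteine group of synthesis had 2 genes, both lower. Cre08.g367600 encodes an O-acetylserine (thiol)-lyase, which makes cysteine from sulfide, and had normalised counts of 23.4, 30.9 and 27.3 in the 1 h UV-B libraries, against 65.0, 64.7 and 60.3 in the no UV-B libraries, 2.33-fold lower. Cre07.g331550 encodes phosphoserine aminotransferase of the phosphorylated route to serine and had normalised counts of 46.7, 49.0 and 61.3 in the 1 h UV-B libraries, against 106, 114 and 116 in the no UV-B libraries, 2.14-fold lower. In Cre07.g331550, UV-B replicate 3 was the highest of its group and still below every library without UV-B.

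g3789 is filed under alanine-glyoxylate aminotransferase, which makes glycine from glyoxylate with alanine as the amino donor. Its normalised counts were 56.6, 59.8 and 60.5 in the 1 h UV-B libraries, against 156, 162 and 154 in the no UV-B libraries, 2.67-fold lower with a log2 fold change of -1.40 ± 0.07. It shares the class III aminotransferase domain with Cre11.g474800 and Cre09.g413750, and of these 3 genes 1 was higher and 2 were lower.

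The genes with neither class were both lower. g1259 has no step in its category and had normalised counts of 146, 163 and 171 in the 1 h UV-B libraries, against 427, 412 and 427 in the no UV-B libraries, 2.64-fold lower. Cre01.g012900 has an ACT domain, a fold that binds amino acids in many regulated enzymes, and had normalised counts of 2.64, 2.37 and 3.4 in the 1 h UV-B libraries, against 5.16, 6.07 and 6.32 in the no UV-B libraries. Its lowest library held 23 reads, and its log2 fold change of -0.85 ± 0.17 was the smallest of the 28 in size.

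Over the 12 synthesis genes the median log2 fold change was 0.08. It falls between 6 values of 1.06 to 1.99 and 6 values of -3.11 to -0.90, so no synthesis gene was near it. It was 0.0039 without no UV-B replicate 1, 0.21 without no UV-B replicate 2 and 0.03 without no UV-B replicate 3. The direction of every gene was the same in these settings. The summed normalised read count of the 6 higher genes was 215.6 ± 9.06 with UV-B and 85.3 ± 5.22 without (SD, n = 3 each). For the 6 lower genes it was 161 ± 13.5 with UV-B and 479 ± 10.3 without. Each of these sums follows the direction by which its genes were grouped. Over all 12 synthesis genes the sum was 376.6 ± 16.5 with UV-B and 564.6 ± 14.8 without, so it was lower although the median was 0.08.

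The median coefficient of variation of the 28 genes was 8.20% with UV-B and 4.37% without, against 10.6% and 10.3% over all genes tested. Their choice from genes called changed in these same libraries favours a small spread. Most of them also had higher values, and so less counting error, without UV-B. The standard error of the log2 fold change was widest, 0.20, in g17708, where the libraries held 8 to 103 reads, and narrowest, 0.07, in g3755, where they held 1220 to 3134. In the authors' deposited table the members nearest to the 2-fold limit were Cre16.g694850 at -1.04, Cre01.g012900 at -1.05 and Cre03.g204250 at 1.09 on the log2 scale. The category column covers listed genes only, so no gene just outside the limit can be named.

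Other listed genes around amino acid metabolism were taken from categories and description words, and they too were chosen by the same contrast. In the nitrogen metabolism category 3 genes were higher and 4 lower. The 3 higher genes and 1 of the lower, Cre10.g423400, have the domain of dihydrouridine synthases, which modify tRNA, and are filed as miscellaneous. The other 3 listed genes are filed under enzymes of nitrogen metabolism, and all 3 were lower. The largest fall was Cre05.g232150, a glutamate dehydrogenase, which releases ammonium from glutamate, with normalised counts of 204, 212 and 244 in the 1 h UV-B libraries, against 1068, 1048 and 1056 in the no UV-B libraries. The other glutamate dehydrogenase of the list, Cre09.g388800, named after its values were seen, had normalised counts of 9.52, 10.8 and 11.3 with UV-B and 40.0, 39.7 and 37.1 without it. Both were lower, by 4.81-fold and 3.69-fold. The third, g2996, also named after its values were seen, is filed under glutamine synthetase, which binds ammonium to glutamate, and had low normalised counts of 1.51, 1.75 and 0.911 with UV-B and 3.73, 3.56 and 4.32 without it, and its lowest library held 11 reads. The largest rise of the category was the dihydrouridine synthase domain gene Cre12.g486900, with a log2 fold change of 1.29. In sulfur assimilation both listed genes were higher, and both had low values. Cre03.g180300 is described as sulfite reductase, which reduces sulfite to sulfide. Its normalised counts were 6.50, 8.56 and 5.55 with UV-B and 3.29, 2.24 and 3.33 without it, and its lowest library held 17 reads. The other, Cre17.g711050, named after its values were seen, has the domain KTI12 and no description, so its place here rests on its category. Its normalised counts were 1.88, 1.96 and 2.48 with UV-B and 1.10, 0.792 and 0.665 without it, and its lowest library held 6 reads.

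In one-carbon metabolism 3 genes were higher and 2 lower. The largest rise was Cre13.g587450, a predicted formyltetrahydrofolate cycloligase of folate metabolism, with normalised counts of 72.0, 67.2 and 64.9 with UV-B and 22.6, 26.1 and 20.5 without it. The largest fall was Cre03.g162650, of the methylenetetrahydrofolate dehydrogenase step, with a log2 fold change of -1.30. Serine hydroxymethyltransferase links serine, glycine and folate. Its genes, named after their values were seen, were higher by 2.44-fold for Cre09.g411900 and by 2.21-fold for Cre06.g293950. Of the amino acid transporters Cre13.g572200 was higher, at 1.19, and Cre06.g264450 lower, at -1.06, both as log2 fold changes. No polyamine gene was listed (0 genes). Of the tRNA charging category the authors' table lists 14 genes, and all 14 were higher, where 54.6% of the other listed genes with a category and 9.67% of all genes are listed as raised. Genes of the category outside the table cannot be counted. The 14 include 3 pseudouridine synthase genes, which modify RNA and do not charge tRNA. Of these, only Cre10.g428400 is described as an enzyme of tRNA. On the log2(value + 1) scale the largest rise was the serine-tRNA ligase category gene g1522, at 1.79, with normalised counts of 41.4, 43.0 and 34.7 with UV-B and 8.67, 10.4 and 13.6 without it. Above it in the authors' deposited table stood 2 of the pseudouridine synthase genes, named after their values were seen, Cre02.g086076 at 1.95 and g1894 at 1.85 against 1.82 for g1522 on the log2 scale. Normalised counts of Cre02.g086076 were 1.79, 1.65 and 1.49 with UV-B and 0.329, 0 and 0.749 without it.

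Words for amino acid enzymes in the descriptions found 13 genes outside the category, 9 higher and 4 lower, 5 of them already in the lists above. Some match by a word and serve other pathways, such as the largest rise, Cre07.g324200, which makes betaine lipids, with a log2 fold change of 2.08. The largest fall was again Cre05.g232150. Of the others, 4 were named after their values were seen because they act beside the genes above. Cre13.g576400 is described as a branched-chain amino acid transaminase, which catalyses the reversible step between the amino acids and their keto acids. Its category is only class IV aminotransferases, and its domains D-AAT_like and ADCL_like stand before IlvE, so this name rests on the description. It had normalised counts of 119.8, 117 and 114 in the 1 h UV-B libraries, against 38.3, 38.7 and 38.1 in the no UV-B libraries. It was 3.05-fold higher while the 7 branched-chain degradation genes were lower. Cre02.g144800, described as N-acetylglutamate synthase or acetylglutamate kinase of arginine synthesis, had normalised counts of 71.2, 70.4 and 77.4 with UV-B and 24.1, 30.0 and 24.6 without it. Cre16.g666050, a saccharopine dehydrogenase gene, an enzyme of lysine breakdown in plants and of lysine synthesis in fungi, had normalised counts of 85.2, 88.8 and 79.1 with UV-B and 32.9, 35.5 and 36.4 without it. Cre01.g029250, related to aromatic amino acid hydroxylases, which make tyrosine from phenylalanine in animals, had normalised counts of 71.0, 69.4 and 75.2 with UV-B and 218, 207 and 215 without it, 2.97-fold lower.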

How the data were processed

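Poly(A) RNA libraries of 3 cultures given 1 h of UV-B and 3 kept without it were made with a strand-marking kit, as the labels' protocols say. The authors used TopHat2, HTSeq 0.5.3p9 and edgeR 3.4.2 per the submitters' processing notes. For genome build, gene models and strand setting, names were not given in the sources used here. Per gene, they deposited a signal, meaning read counts scaled to CPM relative to an effective library size. Their deposited table of changed genes holds log2 fold changes and log2 abundances beside p-values and false discovery rates.

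Dividing each deposited signal by what 1 read is worth gave whole reads, within 0.001 reads, for 100% of values in each library. In no UV-B replicate 3 no gene had exactly 1 read (0 genes), and the spacing of values gave the step. Columns were matched to samples by the description labels, which for the no UV-B samples are UVB and a number, and 0 columns of values were unused.

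limma 3.58.1 in R 4.3.3 was fitted with a mean-variance trend to log2(value + 1) of 13415 genes that reached 1 in 3 or more libraries, without further terms, with Benjamini-Hochberg adjustment over all of them at 0.05. edgeR 4.0.16 and DESeq2 1.42.0 were run on recovered reads as alternatives, beside other pseudocounts, filters and scalings, the replicate number as a term, and each library left out. The script was tested on simulated data. Python 3.11.15 with pandas 2.3.3 made the other tables.

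The members and lists were chosen with earlier results of these data known. Class and family come from the first category of a gene, and a description other than the category was present for 11 of 28 genes. Values per library were given for the largest rise and fall of each amino acid family, for genes that share a step, and for those on both sides of 1 amino acid. The remaining members were added so that each one is shown. Outside the members, the largest rise and fall of each list were named. Counting error limits low values, and sequences were not used here.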

Additional observations from a re-analysis of the deposited data

How the results depend on the processing

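Choice from genes listed as changed at least 2-fold in this contrast largely fixes the direction of a member. The direction of all 28 genes was the same in each of 15 alternatives, 420 values in all. The number higher with UV-B was 7 in each of these, 7 when the gene with the category in the second place was included, and 6 without 4 genes whose category and description differ or that have another pathway in their annotation. Over all genes 7920 passed the threshold, against 6396 to 8102 in the alternatives, 7943 with edgeR and 6832 with DESeq2 on recovered reads.

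The median log2 fold change of the degradation genes, -1.74, was -1.45 with a pseudocount of 5, -1.64 with libraries scaled to an equal total, -1.85 with edgeR and -1.86 with DESeq2. The first understates low genes by construction: with that pseudocount g17708 was at -0.94, Cre12.g549450 at -1.09, Cre01.g012900 at -0.48 and Cre16.g694850 at -0.57. Equal totals shifted the median of all genes by 0.09, with 4538 genes called higher and 3191 lower, against 3955 higher and 3965 lower in the authors' scaling. The synthesis median of 0.08 was 0.17 with equal totals. It turned to -0.90 when the glycine gene in both classes was counted under synthesis, and it was 1.06 without the 4 genes above. These settings, which change membership, were chosen after seeing the data, and with 6 genes on each side 1 gene moves this median across the gap. With 1 library left out, it ran from 0.0039 to 0.21, the degradation median from -1.79 to -1.68, and the genes past the threshold from 7090 to 7426.

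With the replicate block 8102 genes passed the threshold, and the member medians were 0.08 and -1.74 as before. Deviations of same-numbered libraries had correlations of 0.04, 0.02 and 0.12, so the numbers were not taken to pair the cultures.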

Other observations

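In the RefSeq gene table of assembly Chlamydomonas_reinhardtii_v5.5, used only for which genes lie next to each other, 19 of the 28 genes were found. No pair of them is adjacent (0 pairs). Of their 38 neighbouring genes 28 have values and 7 are in the authors' deposited table, which lists 19.3% of all genes with values. Of these 7, 4 moved in the direction of the amino acid gene beside them and 3 the other way. Next to the acyl-CoA dehydrogenase gene Cre16.g695100, for example, Cre16.g695050, filed under a multifunctional enzyme of fatty acid beta-oxidation, had a log2 fold change of -1.55. Both neighbours of Cre06.g296400, which was lower, were higher, with 0.81 for Cre06.g296350 and 1.32 for Cre06.g296450.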
